A study of Mus musculus with 39 samples.

Results

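Of 39 single cells picked from adult mouse liver, 22 were duct-like by a rule on 2 genes: osteopontin (Spp1), a secreted protein of bile duct epithelium, at 100 CPM or more, and apolipoprotein A1 (Apoa1), a hepatocyte product, under 100 CPM. CPM is the usual name for read counts scaled to library size, used here for the linear form of the deposited values. The 22 cells were 56.4% of all cells (exact Clopper-Pearson 95% interval 39.6% to 72.2%, which covers the choice of cells alone). They were the cells numbered 9, 11 to 28, 30, 31 and 34 in the labels. All 39 cells came from mice with the Krt19CreERT and Rosa26CAG-EGFP alleles and were sorted for GFP. Krt19CreERT is a drug-inducible Cre recombinase driven from Krt19, a keratin gene of bile duct epithelium, and Rosa26CAG-EGFP is the green reporter. A GFP-positive cell is thus one that had Krt19-driven Cre, or a descendant of one, and the label does not tell these apart. No unlabelled cell, second genotype or treatment was compared, and the labels name no exact age, animal, sort or sequencing run.

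The bile ducts are lined by cholangiocytes, polarised epithelial cells that modify bile by moving ions, water and bile acids. They carry simple keratins, a cadherin-based junction belt, claudin-sealed tight junctions and a primary cilium that faces the lumen. Osteopontin, the keratins of the simple epithelial type, and the transcription factors Sox9 and Onecut1 are widely used to mark them in mouse liver.

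Since the values of Spp1 and Apoa1 chose the cells, and other genes of the same cells go with them, every difference between duct-like and other cells below is a description. The 39 cells are a single labelled group from unnamed animals and cannot serve as replicates, so there is no test, p-value or standard error. For description, the other 17 cells were split by 3 genes of their own. In 6 of them Apoa1 reached 100 CPM (cells 1 to 4, 38 and 39, called Apoa1-high), in 7 the matrix genes Dcn and Col1a2 both did (cells 5 to 8, 10, 35 and 37), and 4 were in neither set (cells 29, 32, 33 and 36).

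The rule left a wide gap around most cells and a narrow one around a few. Among duct-like cells the lowest Spp1 value was 149 CPM, in cell 24, and the next was 534 CPM, in cell 9. Just outside, the highest value in a cell with Apoa1 under 100 CPM was 9.27 CPM, in cell 29. Apoa1 was listed at 0 in 17 duct-like cells. Cell 31, at 95.0 CPM, lay just under the level, the next highest duct-like cell held 0.519 CPM, and the lowest Apoa1-high cell held 4977 CPM. Apoa1-high cells 2 and 3 also held Spp1, at 365 and 161 CPM. Within the duct-like cells, cell 24 and the set of cells 9, 11, 12 and 13 stood apart in several genes, and the counts without them are given below.

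The median number of genes at 100 CPM was 887 in duct-like cells and 1139 in the other cells, and the ranges overlapped. The summed value of a cell ranged over 626358 to 3128332 (median 1182114) CPM in duct-like cells and over 351255 to 1490930 (median 890909) CPM in the others. By the spacing of the lowest values, 1 CPM stood for 4.46 to 19.8 (median 10.4) reads in duct-like cells and 3.67 to 41.5 (median 12.5) reads in 15 of the others, while cells 38 and 39 gave no estimate. The 45S ribosomal RNA precursor Rn45s took a median of 17.0% of the summed value in duct-like cells and 0.617% in Apoa1-high cells, with no overlap. The part of depth and of Rn45s in the gene differences below was not tested.

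**Figure D1:**
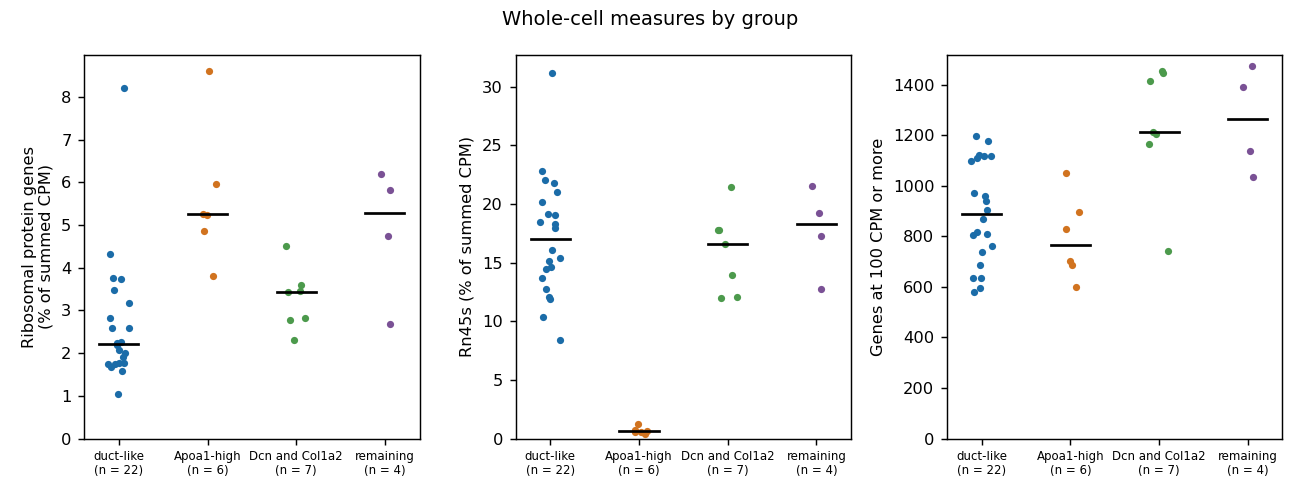
Whole-cell measures by group: each point is 1 of the 39 cells, bars are group medians, and the vertical axes give ribosomal protein genes and Rn45s as a percent of the cell's summed CPM and the number of genes at 100 CPM or more. Ribosomal protein genes had a median of 2.21% in duct-like cells against 5.25% in Apoa1-high cells, Rn45s was at most 1.22% in the Apoa1-high cells and at least 8.42% in the duct-like cells, and the median number of genes was 887 in duct-like cells against 1213 in the Dcn and Col1a2 cells.

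Of the 6 duct markers, 1 of them Spp1, which the rule used, all 6 were at 100 CPM in 14 of the 22 duct-like cells, 5 in 7 cells and 4 in cell 16. By the rule, Spp1 ran from 149 to 83095 CPM with a median of 14322 CPM in the 22 duct-like cells, and 2 of 17 other cells, both Apoa1-high, reached 100 CPM. Keratin 18 (Krt18), a keratin of simple epithelia, ran from 196 to 14520.5 CPM with a median of 4038 CPM and was at or above 100 CPM in all 22 duct-like cells and in 8 of the 17 others. Its partner keratin 8 (Krt8) ran from 18.3 to 37682 CPM with a median of 2815 CPM and reached the level in 20 duct-like cells and 5 others. The keratin pair was thus found at that level in cells of the Apoa1-high and of the Dcn and Col1a2 sets too, and in none of the 4 remaining cells. Cells 16 and 17 were the duct-like cells with low Krt8, at 18.5 and 18.3 CPM.

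Tm4sf4, a membrane protein of the L6 family, ran from 46.2 to 13198 CPM with a median of 2612 CPM in duct-like cells. It reached 100 CPM in 21 of them and in 1 of the 17 others, an Apoa1-high cell. The 1 duct-like cell under the level was cell 34. E-cadherin (Cdh1), the adhesion molecule of epithelial junctions, ran from 0.344 to 7295 CPM with a median of 616 CPM and was at or above 100 CPM in 16 duct-like cells and in no other cell, where it did not pass 7.89 CPM. The 6 duct-like cells under 100 CPM for Cdh1 were cells 9, 13, 14, 16, 24 and 31, with cell 24 lowest. The secreted chaperone clusterin (Clu) ran from 1307 to 31269 CPM with a median of 15151 CPM, reached 100 CPM in all 22 duct-like cells and in 10 others, and overlapped between the groups, since the highest other cell held 7137 CPM.

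**Figure D2:**
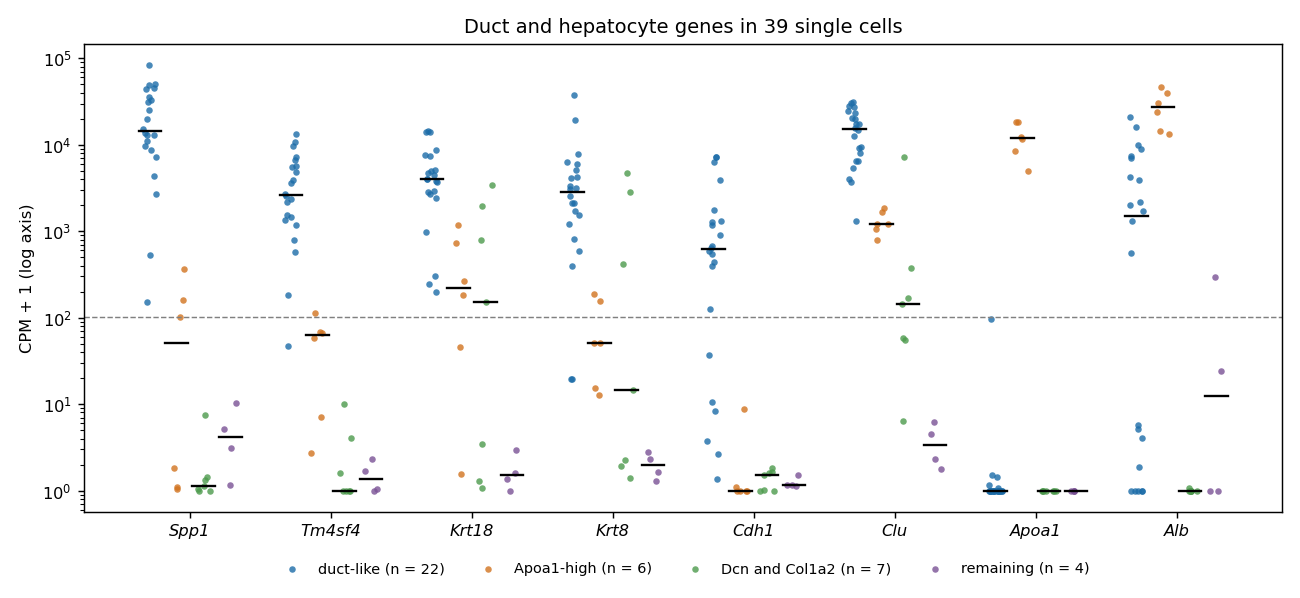
The 6 duct markers and the hepatocyte genes Apoa1 and Alb in the 39 cells: the vertical axis is CPM + 1 on a log axis, each point is a cell, bars are group medians, and the dashed line is 100 CPM. Spp1, Krt18 and Clu lie above the line in all 22 duct-like cells, no other cell lies above it for Cdh1, and 13 duct-like cells lie above it for Alb.

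The promoter windows of Spp1 and Tm4sf4, the 2 markers with the largest share differences between duct-like and other cells (Spp1 by the rule itself), are printed to show the letters just before their starts. They are the 250 bases before the annotated start in RefSeq assembly GRCm38.p6, from chr5:104434861-104435110 on the plus strand for Spp1 (the first of 2 starts) and chr3:57425160-57425409 on the plus strand for Tm4sf4. Capitals mark matches to TATAAA or CCAAT on either strand.
Spp1: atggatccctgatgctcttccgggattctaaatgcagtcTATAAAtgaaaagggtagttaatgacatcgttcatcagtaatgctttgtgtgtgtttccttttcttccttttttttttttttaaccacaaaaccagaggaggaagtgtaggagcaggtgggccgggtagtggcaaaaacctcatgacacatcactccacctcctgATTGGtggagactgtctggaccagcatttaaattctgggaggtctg
Tm4sf4: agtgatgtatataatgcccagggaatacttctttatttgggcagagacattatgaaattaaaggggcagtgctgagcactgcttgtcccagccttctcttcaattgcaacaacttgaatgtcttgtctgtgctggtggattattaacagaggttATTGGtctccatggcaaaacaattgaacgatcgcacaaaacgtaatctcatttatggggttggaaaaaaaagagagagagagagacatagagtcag
The CCAAT letters, read on the minus strand as ATTGG, lay at -46 to -42 in the Spp1 window and at -96 to -92 in the Tm4sf4 window, counted from the start. TATAAA lay at -211 to -206 in the Spp1 window. Of 32851 RefSeq windows of this length, 33.8% held CCAAT and 12.4% held TATAAA. Windows were found for 4 of the 6 markers, and those of Krt18 and Krt8 held none of the motifs searched.

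Across all genes, 3615 were at 100 CPM or more in at least 4 of the 39 cells and are called tested below, in the sense of compared. Of these, 115 (3.18%) reached the level in a share of duct-like cells at least 30 percentage points above that of the other 17 cells, and 272 (7.52%) in a share at least 30 points below it. Below, "higher" and "lower" stand for these 2 calls. The members were chosen in the same cells, so nothing is read from how far a list's count lies from these percentages. The median gene of the 3615 was 2.67 points lower in duct-like cells. The plot of shares sets each gene's share in duct-like cells against its share in the others.

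**Figure D3:**
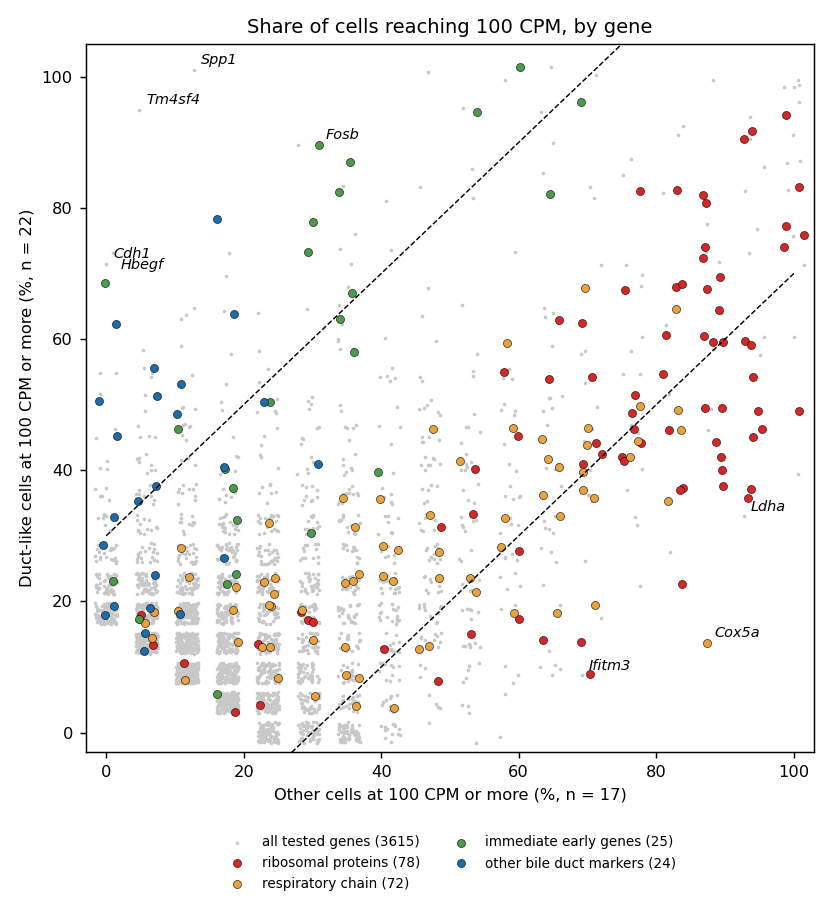
Share of cells at 100 CPM or more for each of the 3615 tested genes, other cells on the horizontal axis and duct-like cells on the vertical axis, both in percent, with points displaced slightly at random so that equal shares can be seen. Dashed lines mark a difference of 30 percentage points. The 115 higher genes lie above the upper line, with Tm4sf4, Hbegf and Fosb among them, and the 272 lower genes below the lower line, with Cox5a and Ifitm3 among them.

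Of the 34 further bile duct markers measured, 24 were tested, 12 were higher and none lower, and the median difference was 28.9 points. The transcription factor Onecut2 was at 100 CPM in 17 duct-like and 3 other cells, all 3 of them Apoa1-high. The actin-associated adaptor Sorbs2 reached 100 CPM in 14 duct-like cells and in no other cell, with a duct-like median of 287 CPM. Tetraspanin 8 (Tspan8) did so in 12 and 1, and the surface glycoprotein Cd24a in 14 and 3. The 3 other cells with Cd24a were among the 4 remaining cells.

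Krt19, whose promoter drives the Cre of these mice, was itself at 100 CPM in 11 of 22 duct-like cells (exact interval 28.2% to 71.8%) and in 4 of 17 others. All 4 others were Dcn and Col1a2 cells. Krt19 ran from 0 to 20676 CPM with a median of 123 CPM in duct-like cells, with cell 24 highest. The related Krt7 reached the level in 9 duct-like and 3 other cells. Both genes are standard cytokeratin markers of ducts, and each was under 100 CPM in at least 11 of the 22 cells.

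Further classical markers were at 100 CPM in 11 or fewer duct-like cells. Sox9, a transcription factor of duct development, was at that level in 8 duct-like and 1 other cell. The stem cell antigen Prom1, which encodes CD133, gave 8 and 1, and the adhesion molecule Epcam 6 and 0. The fibrocystin gene Pkhd1, mutated in recessive polycystic disease, gave 7 and 0. Bicc1, an RNA-binding protein linked to cystic ducts, gave 11 and 2.

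Of 30 epithelial junction genes measured, 21 were tested, of which 8 were higher, none lower and 13 neither. The median number of members at 100 CPM was 6 in duct-like cells and also 6 in the Dcn and Col1a2 cells, against 1.5 in Apoa1-high and 0.5 in remaining cells. The tight junction claudins Cldn4, Cldn7 and Cldn2 were at 100 CPM in 11, 10 and 9 duct-like cells and in no other cell. In the 11 cells with Cldn4 its median was 3321 CPM, and the highest other cell held 0.447 CPM. The desmosomal cadherin Dsg2 was at the level in 11 duct-like cells and 1 other, and p120 catenin (Ctnnd1) in 9 and 1.

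Of 9 tested bile and ion transport genes, 2 were higher, none lower and 7 neither, with a median difference of 12.3 points. The sodium pump beta subunit Atp1b1, 1 of the 2 higher, was at 100 CPM in 12 duct-like and 2 other cells. Of 5 tested genes of the primary cilium list, Bicc1 and Pkhd1 were the 2 higher, and none was lower. Of 16 tested biliary and hepatic transcription factors, 3 were higher, Onecut2, Id2 and Sox9, and none lower. Id2, an inhibitor of basic helix-loop-helix factors, was at 100 CPM in 16 duct-like and 3 other cells, and was the 1 higher gene among 13 tested of the TGF-beta, BMP and activin list.

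**Figure D4:**
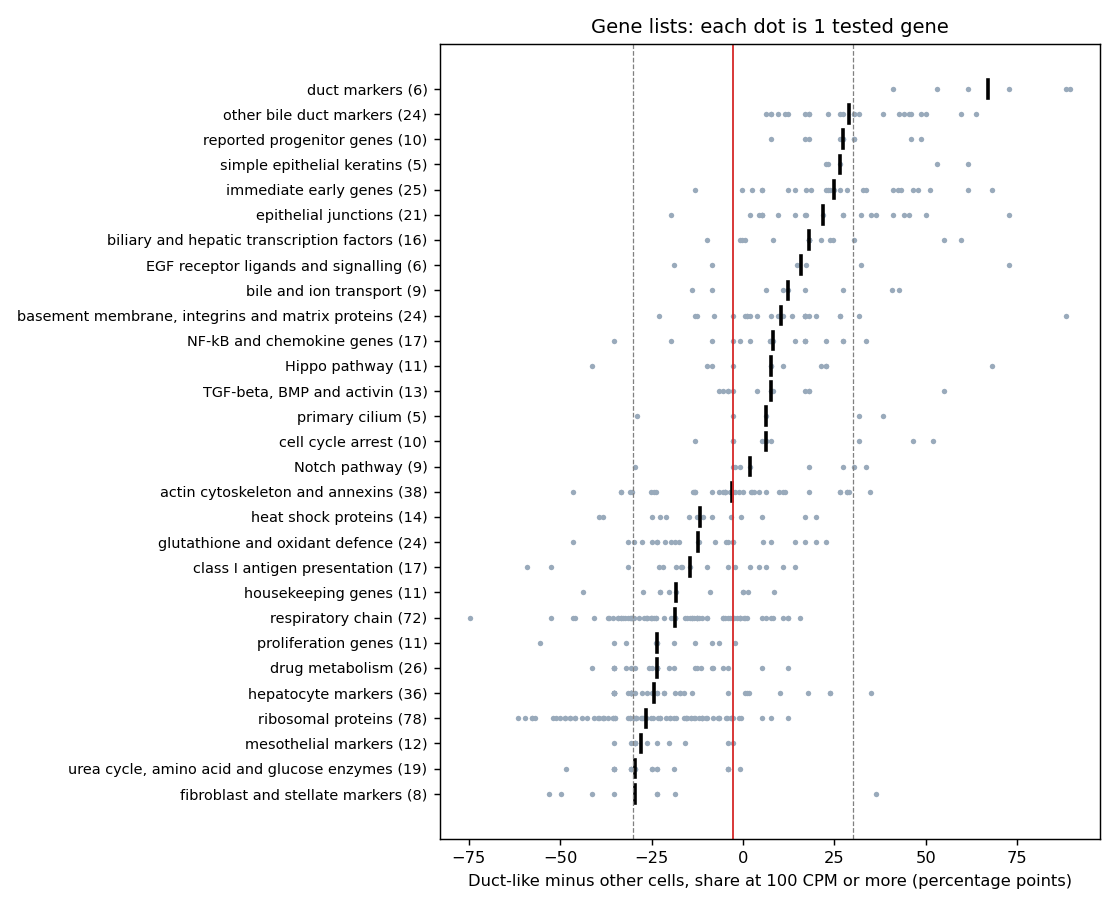
Gene lists in rows, with the number of tested members in brackets: the horizontal axis is the share of duct-like cells at 100 CPM minus that of the other cells in percentage points, each dot is 1 gene, black bars are list medians, the red line is the median of all 3615 genes and dashed lines mark 30 points. The median is 28.9 points for the further bile duct markers, 24.9 for immediate early genes, -18.4 for the respiratory chain and -26.5 for ribosomal proteins.

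Outside the marker set, the EGF receptor ligand Hbegf had the largest share difference among the higher genes. It ran from 0 to 5653 CPM with a median of 426 CPM in duct-like cells, reached 100 CPM in 16 of 22 and in no other cell, and stayed at or under 4.02 CPM outside. The dual-specificity phosphatase Dusp6, a feedback inhibitor of ERK signalling, was the other higher gene of 6 tested on its list, at the level in 11 duct-like and 3 other cells. Of 9 tested Notch pathway genes, Notch2, the receptor, gave 10 and 2, Sox9 was the second higher gene, and none was lower. Of 11 tested Hippo pathway genes 1 was higher, Cyr61, and 1 lower, the receptor kinase Axl, which was at 100 CPM in no duct-like cell and in 7 others. The Notch ligand Jag1 was at 100 CPM in 6 duct-like cells and no other cell.

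Of 32 immediate early genes measured, 25 were tested, and 10 of these were higher and none lower. These are genes that signals switch on within minutes, and they encode mainly transcription factors. Fos, a subunit of the AP-1 factor, ran from 2.32 to 17571 CPM with a median of 3405 CPM in duct-like cells and was at 100 CPM in 21 of 22 and in 9 of 17 others. Its paralogue Fosb did so in 20 and 5, the zinc finger factor Egr1 in 19 and 6 and the stress-induced factor Atf3 in 17 and 5. The secreted protein Cyr61, a target of the Hippo pathway effector Yap, ran from 0 to 2617 CPM with a median of 292 CPM and was at 100 CPM in 15 duct-like cells and in no other cell.

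The split of the other cells shows where they differed from the duct-like cells in these genes. All 5 other cells with Atf3 and all 6 with Egr1 at 100 CPM were Dcn and Col1a2 cells. The median number of list members at 100 CPM was 15 (range 7 to 20) of 32 in duct-like cells, 14 in Dcn and Col1a2 cells, 7.5 in the remaining cells and 1.5 in Apoa1-high cells. Against the Apoa1-high cells alone, 311 genes (8.6%) were higher and 477 (13.2%) lower, with 20 immediate early members among the higher and 1 among the lower. Against the 11 other cells without Apoa1, 94 genes (2.6%) were higher and 449 (12.4%) lower, with 5 immediate early members among the higher. The count was thus 10 against all other cells and 5 with the Apoa1-high cells left out.

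Btg2, which encodes an anti-proliferative protein, Cyr61 and Zfp36, which encodes an mRNA decay factor, are the 3 genes whose windows are printed, as each holds a different element. The windows are the 250 bases before the start in RefSeq assembly GRCm38.p6, at chr1:134079156-134079405, chr3:145649986-145650235 and chr7:28379229-28379478 respectively, all on the minus strand and printed 5′ to 3′ along the gene. Capitals mark, on either strand, the CRE letters TGACGTCA, the TATA box letters TATAAA, the CCAAT box, the TEAD element GGAATG or the CArG box of SRF.
Btg2: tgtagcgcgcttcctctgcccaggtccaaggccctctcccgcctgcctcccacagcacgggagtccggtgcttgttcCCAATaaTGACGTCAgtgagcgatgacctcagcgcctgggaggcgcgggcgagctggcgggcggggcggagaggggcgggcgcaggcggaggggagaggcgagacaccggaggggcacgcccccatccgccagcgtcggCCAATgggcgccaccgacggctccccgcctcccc
Cyr61: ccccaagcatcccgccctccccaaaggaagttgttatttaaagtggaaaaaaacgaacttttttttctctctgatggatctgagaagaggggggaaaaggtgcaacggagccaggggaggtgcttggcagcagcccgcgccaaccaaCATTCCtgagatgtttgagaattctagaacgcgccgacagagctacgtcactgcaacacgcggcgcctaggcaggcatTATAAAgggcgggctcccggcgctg
Zfp36: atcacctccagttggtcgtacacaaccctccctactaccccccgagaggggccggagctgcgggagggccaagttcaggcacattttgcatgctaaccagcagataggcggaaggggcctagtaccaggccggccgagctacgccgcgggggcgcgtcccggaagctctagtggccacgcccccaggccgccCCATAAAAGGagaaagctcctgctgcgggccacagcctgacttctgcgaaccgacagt
In the Btg2 window the CRE lay at -166 to -159, in the Cyr61 window a TEAD element lay at -103 to -98 and TATAAA at -25 to -20, and in the Zfp36 window a CArG box lay at -58 to -49. Of the 32851 windows, 1.55% held the CRE, 12.6% the TEAD element, 12.4% TATAAA and 1.47% the CArG box. Windows were matched for 8 of the 10 higher immediate early genes. The CRE was found in 2 of these 8, Btg2 and Ppp1r15a, and the AP-1 element TGANTCA in none, against 6.75% of all windows. The GC box GGGCGG, not in capitals here, was in 7 of the 8 windows and in 32.7% of all, and 1 copy in the Zfp36 window shared a base with the CArG box. A match describes the letters, not use of the site.

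Related stress and immune lists were mixed. Of 17 tested NF-kB and chemokine genes, the inhibitor-like factor Nfkbiz was higher (10 duct-like and 2 other cells) and the acute-phase gene Saa3 lower (0 and 6). Of 14 tested heat shock genes, none was higher and 2 were lower, the endoplasmic reticulum chaperone Hsp90b1 and the mitochondrial co-chaperone Hspe1. Of 17 tested class I antigen presentation genes, none was higher and 3 were lower: the chaperone Calr was at 100 CPM in 9 of 22 duct-like and all 17 other cells, the proteasome activator Psme2 in 4 and 12, and the immunoproteasome subunit Psmb8 in 6 and 10.

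Genes of growth arrest had a median difference of 6.42 points and genes of proliferation one of -23.5. Of 10 tested arrest genes, 3 were higher and none lower. Btg1, an anti-proliferative relative of Btg2, was at 100 CPM in 14 duct-like and 2 other cells, and Trp53inp1, a p53 target, in 7 and none. Of 11 tested proliferation genes, none was higher and 3 were lower. Mki67, the antigen of cycling cells, was at 100 CPM in no duct-like cell and in 6 of 17 others, 3 of them Dcn and Col1a2 cells and 3 remaining cells. The histone variant gene H2afz gave 2 and 11.

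Among 10 tested genes reported for liver progenitors, Tspan8, Cd24a, Prom1 and Sox9 were higher and none was lower. The median number of list members at 100 CPM was 4 in duct-like cells and 3 in the remaining cells, against 0 in the Apoa1-high and in the Dcn and Col1a2 cells. At least 3 members were at that level in 17 duct-like and 3 other cells, all 3 of them remaining cells. Of 24 tested basement membrane, integrin and matrix genes, 2 were higher, Spp1 and the fibronectin receptor subunit Itga5 (7 duct-like cells and no other), and none was lower. Actin cytoskeleton genes gave 1 higher of 38 tested, the myosin light chain Myl12b (18 and 8), and 5 lower, among them the membrane linker Msn (5 and 9).

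Hepatocyte transcripts were found in most duct-like cells. At least 3 markers of the hepatocyte list reached 100 CPM in 15 of the 22 and in 10 of the 17 other cells. Those other cells were all 6 Apoa1-high cells, 2 Dcn and Col1a2 cells and 2 remaining cells. Albumin (Alb), the main plasma protein of hepatocytes, was at 100 CPM in 13 of 22 duct-like cells. In those 13 it ran from 564 to 20694 CPM, with a median of 4206 CPM. Apoa1 was under 100 CPM in these cells by the rule.

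Of 41 hepatocyte genes measured, 36 were tested, of which 14 were lower and 1 was higher. The 1 higher was Apob, the structural protein of very low density lipoprotein, at 100 CPM in 9 duct-like and 1 other cell. Beside Alb, the secreted proteins Ttr and Ambp were at that level in 13 duct-like cells each. Transferrin (Trf) was so in 12 duct-like cells, where its median was 6311 CPM, and in 12 of 17 others. In contrast the apolipoprotein Apoc3, the fatty acid binding protein Fabp1 and the cytochrome Cyp3a11 were each at 100 CPM in no duct-like cell and in all 6 Apoa1-high cells. A duct-like cell held a median of 4.5 (range 1 to 17) of the list at 100 CPM. The median was 34 in Apoa1-high cells, 1 in Dcn and Col1a2 cells and 2 in remaining cells.

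The enzyme lists had no higher member. Of 19 tested urea cycle, amino acid and glucose enzymes, 8 were lower, among them arginase (Arg1), phosphoenolpyruvate carboxykinase (Pck1) and glycine methyltransferase (Gnmt), each at 100 CPM in no duct-like cell and in all 6 Apoa1-high cells. Of 26 tested drug metabolism genes, 7 were lower. Of 24 tested oxidant defence genes, 2 were lower, superoxide dismutase Sod1 and thioredoxin Txn1.

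Among markers of other cell types, at least 3 reached 100 CPM in 1 duct-like cell for the mesothelial list, in 1 for the fibroblast and stellate list, and in none for the granulocyte, macrophage and leukocyte lists. Of the endothelial list only 3 genes were measured and of the red cell list only 1, and none of these reached 100 CPM in a duct-like cell. Of the defining markers, the Kupffer cell gene Vsig4 and the endothelial genes Cdh5 and Clec4g were listed at 0 in all 22. Of the 6 leukocyte genes measured, Tyrobp, a signalling adaptor of immune cells, was at 259 CPM in cell 19, and no other member reached 100 CPM in a duct-like cell. The summed granulocyte markers did not pass 197 CPM in any duct-like cell, against up to 80112 CPM in other cells, and the summed endothelial markers did not pass 9.31 CPM. The summed macrophage markers reached 4688 CPM in 1 duct-like cell, where the receptor gene Cd14 made up 4684 CPM, and Cd14 was at 100 CPM in 8 duct-like and 4 other cells. Of 12 tested mesothelial genes none was higher and 2 were lower, and their sum ranged up to 3402 CPM in duct-like and 12403 CPM in other cells. Dcn, a matrix proteoglycan, was at 100 CPM in no duct-like cell. Of 8 tested fibroblast and stellate genes 4 were lower and 1 higher. The 1 higher was Rgs5, a G protein regulator known from pericytes, at the level in 8 duct-like cells and in no other cell, while Vim, the intermediate filament of mesenchyme, was at it in 2 and 10.

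Ribosomal protein and respiratory chain genes, the 2 longest lists, held the most lower genes by number. Of 78 tested ribosomal protein genes, a list drawn from their names after the values were seen, 30 were lower and none higher, and the median difference was -26.5 points. A duct-like cell held a median of 35 of 83 ribosomal protein genes at 100 CPM (range 14 to 66), against 69, 54 and 62 in the Apoa1-high, Dcn and Col1a2, and remaining cells. Rpl35a was at the level in 2 of 22 duct-like and 12 of 17 other cells, and Rps24 in 5 and 14.

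Summed over the list, ribosomal protein genes made up between 1.05% and 8.21% of a duct-like cell's value, with a median of 2.21%. In other cells they made up between 2.32% and 8.61%, with a median of 4.50%, so the ranges overlapped. Cell 24 held the highest sum, 256764 CPM. Leaving out cells 9, 11, 12 and 13 from the duct-like cells gave 39 lower ribosomal protein genes in place of 30. Against the Apoa1-high cells alone 43 were lower and 1 higher, and against the 11 other cells without Apoa1 27 were lower. Genes of ribosomal proteins have many near-identical copies in the genome, and how shared reads were split among them is not given in the sources used here.

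Of 72 tested respiratory chain genes, 19 were lower and none higher. Cox5a, a subunit of cytochrome c oxidase, was at 100 CPM in 3 duct-like and 15 other cells, with medians of 0.123 and 366 CPM. The complex I subunit Ndufb11 gave 4 and 12. Without cells 9, 11, 12 and 13, 31 respiratory chain genes were lower in place of 19. The other cells were not alike in this: against the Apoa1-high cells alone 35 were lower and 1 higher, and against the 11 without Apoa1 11 were lower. Of 11 tested housekeeping genes, 1, the glycolytic enzyme Pgk1, was lower and none higher.

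Outside the lists, the 15 genes furthest below included further members of the same kinds. Lactate dehydrogenase (Ldha) was at 100 CPM in 7 duct-like and 16 other cells, and the glycolytic enzyme Tpi1 in 2 and 11. The interferon-induced membrane protein Ifitm3 gave 2 and 12, and the endoplasmic reticulum stress factor Manf 0 and 10. The translocon subunit Sec61b was at the level in 4 and 12, and the proteasome subunit Psma7 in 5 and 13.

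The 15 unlisted genes furthest above were of mixed function. Pamr1, a secreted protease-like protein, and Tstd1 were each at 100 CPM in 12 duct-like cells and no other. The nuclear lamin gene Lmna was at the level in 14 duct-like and 2 other cells. The cytoskeletal linkers Ank3 and Tns1 gave 11 and 0, and 15 and 3. The RNA-binding protein Rbm47 and the adhesion molecule Pvrl2 gave 12 and 1, and 14 and 3. The olfactory receptor gene Olfr613 gave 14 and 2, while its highest value, 1094 CPM, was in another cell.

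In all, 104 of the 3615 genes (2.88%) were at 100 CPM in at least 5 duct-like cells and in no other cell. By number of duct-like cells they were led by Cdh1 and Hbegf with 16, Cyr61 with 15, Sorbs2 with 14, and Pamr1 and Tstd1 with 12.

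Among themselves the duct-like cells shared few genes. At 100 CPM, 11 genes were found in all 22, among them Spp1, Clu, Krt18, Jun, Actb, the translation factor Eef1a1 and the histone variant H3f3b. A further 534 genes reached the level in 7 to 15 of the cells. The polymeric immunoglobulin receptor Pigr, which carries antibody into bile, was at 100 CPM in 10 cells with a median of 3746 CPM there, and ceruloplasmin (Cp), a copper carrier, in 14 with 2984 CPM. The Spearman correlation of 2 duct-like cells across genes, which are not independent replicates, had a median of 0.290 over 231 pairs, and that of a duct-like and another cell 0.229 over 374 pairs, with the cells differing in depth.

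**Figure D5:**
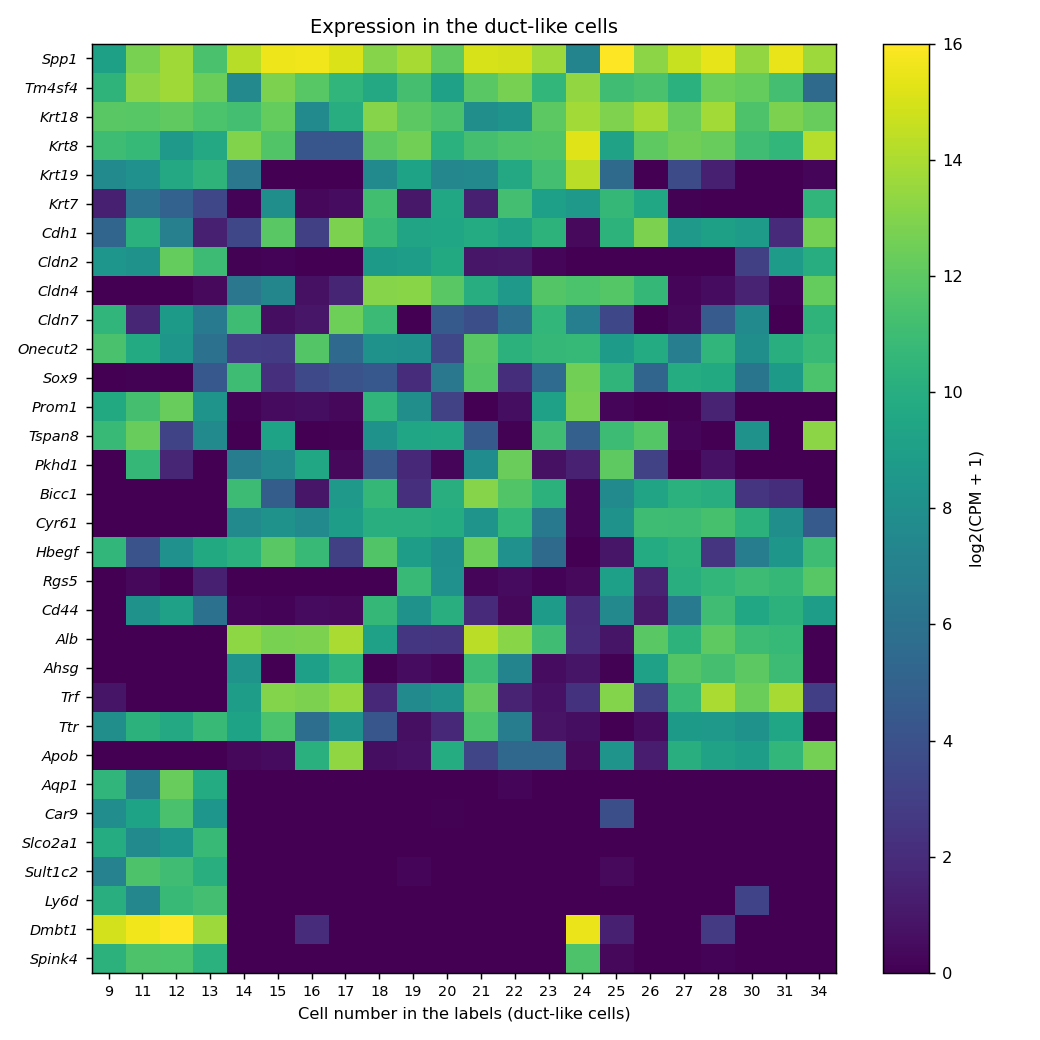
The 22 duct-like cells in columns, in the order of their label numbers, and selected genes in rows, coloured by log2 of CPM + 1. Krt18 is above 100 CPM in all 22 cells, and Alb and Cyr61 are at 0 in cells 9, 11, 12 and 13. Among the 22 cells, Aqp1, Car9, Slco2a1, Sult1c2 and Ly6d are above 100 CPM in those 4 alone.

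Some pairs of genes went together within the duct-like cells, out of 190 pairs among 20 genes picked after their values were seen. All 8 cells with Prom1 at 100 CPM were among the 11 with Krt19, all 9 with Krt7 were among the 11 with Cldn4, and all 10 with Ahsg, a plasma glycoprotein of hepatocytes, were among the 13 with Alb. The other full nestings were all 12 cells with Trf and all 10 with Ahsg among the 15 with Cyr61, and all 6 with Epcam among the 12 with Tspan8. Krt19 and Alb were both at the level in 4 cells. The product of the 2 counts over the 22 cells was 4 for Prom1 and Krt19, 4.5 for Krt7 and Cldn4, 5.91 for Ahsg and Alb, and 6.5 for Krt19 and Alb. Alb, Ahsg and Cyr61 were all listed at 0 in cells 9, 11, 12 and 13. These are counts in the cells at hand, with no test.

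The 4 duct-like cells with the lowest numbers, cells 9, 11, 12 and 13, stood apart from the later 18. They were picked out after their values were seen, and the labels do not say what the numbering reflects. Cyr61, Alb, Bicc1, Ahsg and Apob were listed at 0 in all 4 and were at 100 CPM in 15, 13, 11, 10 and 9 of the later 18. These were 5 genes of 3615 (0.138%) listed at 0 in all 4 and at the level in at least 9 of the 18. The water channel Aqp1, the carbonic anhydrase Car9, the prostaglandin transporter Slco2a1, the orphan receptor Gpr128 and 5 more genes (B4galnt2, Fam84b, Ly6d, Sult1c2 and Ugt2b34) were the reverse, at 100 CPM in all 4 and in none of the 18. They were 9 of 3615 (0.249%), and with up to 2 of the 18 allowed there were 19 (0.526%).

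The values of the genes most tied to the 4 cells are given by cell. The mucosal glycoprotein Dmbt1 was at 30698, 50843, 73383 and 12939 CPM in cells 9, 11, 12 and 13. Gpr128 was at 531, 4821, 10280.1 and 110.4 CPM and was listed at 0 in all 18 later cells. Aqp1 was at 1499, 116, 4920.5 and 927 CPM, and was at 100 CPM in cells 3 and 5 of the other 17, at 108 and 898 CPM. The goblet cell peptide gene Spink4 was at 1236, 2941, 2807 and 1167 CPM. The choice of the 9 genes sets the later 18 cells below 100 CPM, and the highest value there was 65.8 CPM. Of the other 17 cells, 4 held any of the 9 genes at 100 CPM, cells 3 and 5 among them. Aqp1 overlapped between the 4 duct-like cells 9, 11, 12 and 13 and the other 17. Dmbt1 and Spink4, which are not among the 9, overlapped between those 4 cells and cell 24. In cell 10, a Dcn and Col1a2 cell, the same 9 genes lay between 0.498 and 14.5 CPM.

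Cell 24 also stood apart. It held the lowest Spp1 of the duct-like cells, the highest Krt8 (37682 CPM) and Krt19 (20676 CPM), and Cdh1 at 0.344 CPM. It was the 1 later cell with Dmbt1 and Spink4 at 100 CPM, at 47943 and 2974 CPM. Its summed value, 3128332 CPM, was the highest of all 39 cells. Without cell 24, 115 genes were higher and 280 lower, and 10 in place of 12 further bile duct markers were higher. Without cells 9, 11, 12 and 13, 134 genes were higher and 305 lower, and 13 in place of 10 immediate early genes were higher.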

How the data were processed

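RNA of 39 single GFP-sorted mouse liver cells was sequenced, and 1 table of all cells was used. Bowtie 0.12.9, eXpress 1.5.1, edgeR and build mm9 are named in the submitters' processing notes, without order or settings. The authors deposited values on a log2 scale per transcript. Log base and unit were inferred from the values: the shared minimum of -2.58 equals 0.167 on the linear scale and was taken as no reads. Each value was turned back to CPM by raising 2 to it and subtracting 0.167, and transcripts of a symbol were summed. The plan allowed for counts or log2 values, so no count model was fitted. The per-cell scaling was kept.

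A gene was tested, in the sense of compared, if at 100 CPM or more in at least 4 of the 39 cells, and called if the share of cells at that level differed by at least 30 percentage points. No cell was removed, no doublet caller was run, and clustering was not used. A 0 is given as listed at 0, since housekeeping genes such as Tbp were at 0 in many cells too. Intervals are exact 95% Clopper-Pearson ones for shares of cells and cover the choice of cells alone. The members and gene lists were chosen with earlier results of these data known. Named genes were the duct markers, list members with the largest share differences, the 15 unlisted genes furthest above and below, genes in all 22 duct-like cells, genes in 7 to 15 of them with the highest medians, and genes in at least 5 duct-like and no other cell. Others were chosen after their values were seen. Alternatives were other levels, filters, scalings, pseudocounts of 1 CPM and others, group definitions and cells left out. The counting of calls was checked on the measured values of each gene shuffled among the cells, with some genes raised in the duct-like cells. Python 3.11.15 with numpy 2.4.6, pandas 2.3.3, scipy 1.17.1 and matplotlib 3.10.9 was used. Promoter windows came from RefSeq GRCm38.p6, which is not the build of the files, so no gene coordinates of the files are given. Results on a few listed or named genes are not reported here.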

Additional observations from a re-analysis of the deposited data

How the results depend on the processing

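No gene called higher or lower turned direction under any alternative. Settings that changed only the gene filter or the size of difference could not turn one. Leaving out or moving a few cells could not either, as a turn needs a change from 30 points above to 30 below, or the reverse. For these settings the lack of turned genes says nothing about stability. Of the 115 higher genes, 71 were still higher at 10 CPM, 26 at 1000 CPM and 78 against the other cells without Apoa1. Of the 272 lower genes, 226, 24 and 153 were still lower in these settings. At 1000 CPM only 489 genes were tested. Of 42 alternative values of the counts of members, higher and lower genes, 27 stayed within 1.5 times of the value reported or within its interval. The interval was used for the member count alone. It is wide, at 39.6% to 72.2% of the cells, and every alternative, at 20 to 22 members, lay within it. With no filter on genes, the higher and lower counts were the same as reported. They had to be, since a difference of 30 points needs more cells at the level than the filter asks for. These unfiltered counts are among the 27 and say nothing about stability. At 10 CPM 188 genes were higher and 765 lower, at 1000 CPM 41 and 39, so that 51.2% of calls were higher at 1000 CPM against 29.7% at 100 CPM. A difference of 50 points gave 21 and 25. Genes at the level in at least 8 cells gave 172 lower. Against the other cells without Apoa1, 449 were lower, and against the Apoa1-high cells 311 were higher and 477 lower. A difference of 2 in mean log2(CPM + 1) gave 261 and 706, with 0.1 in place of 1 it gave 422 and 1158, and with 10 it gave 168 lower. Rescaling cells to equal sums shifted the median of all genes by -0.15 on the log2 scale and gave 101 higher and 339 lower. The gene counts under rescaling kept the reported members. Spp1 at 1000 CPM would leave 20 members. Applying the rule to rescaled cells would also leave 20, with cell 24 falling under the Spp1 level and cell 31 passing the Apoa1 level. Apoa1 under 10 CPM, or the highest transcript per symbol in place of the sum, would each leave 21. Of 1224 list counts under alternatives, 968 stayed within 1.5 times. A count of 0 that stayed at 0 is among these 968. Many lists had no higher or no lower gene, and the granulocyte, endothelial and red cell lists had no tested gene. The 968 thus says little about how stable the other list counts are. No paired analysis was possible because the labels put all cells in 1 group and pair none of them. Depth per cell limits values of a few CPM, and a gene listed at 0 may not be absent.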
